A study of Mus musculus with 2 samples.

Results

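The matricellular and adhesive glycoproteins examined here were Fn1, Postn, Sparc, Tnc, Thbs1, Thbs2, Spp1, Mgp, Vtn and Cthrc1, chosen by name as all probes that the platform annotation assigns to these 10 genes. That rule found 23 probes for 9 of the 19057 genes with a named probe. Spp1, which encodes osteopontin, was matched to no probe by this rule and was not analysed here. The study compared lacZ-positive epicardial cells isolated from mouse hearts at E11.5 with total dissociated heart cells of the same stage. Both samples carried Tcf21lacZ, a lacZ insertion at the locus of the transcription factor gene Tcf21, in mice of mixed strain (C57BL/6, 129 and CD-1). The sources used here do not give how many hearts were pooled, whether the allele was heterozygous or how the lacZ-positive cells were separated. Total heart was the whole mixture of heart cells and not the lacZ-negative remainder.

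Each group had 1 array, so no difference below has a replicate check and no test between the groups was possible; sizes are given with the standard error over beads (bead SE), which does not cover the spread between animals, isolations or hybridisations. On a bead array, the brightness of the beads that carry a probe measures the amount of matching RNA. Of the 45281 probes, 16226 (35.8%) were detected on the lacZ-positive array and 15553 (34.3%) on the total heart array. The median raw intensity was 63.5 in lacZ-positive cells against 57.6 in total heart. With no normalization between arrays the median log2 ratio of detected genes was 0.42, so raw and normalized ratios are not on the same scale. Normalized ratios were centred close to 0, with a median log2 ratio of 0.044 over 9713 detected genes.

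The embryonic epicardium is a mesothelial sheet that covers the heart, lays down matrix between itself and the myocardium, and gives rise to fibroblasts and mural cells. Fibronectin and vitronectin are adhesive glycoproteins that cells bind through integrins. Matricellular proteins, among them SPARC, periostin, tenascin C, the thrombospondins and osteopontin, are secreted into the matrix and act on cell adhesion, growth factor activity and collagen assembly more than as structural fibres. RNA was measured from samples of many cells, so a change in the share of a cell type and a change of RNA per cell cannot be told apart.

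Most of the detected glycoprotein transcripts were more abundant in the lacZ-positive sample, by modest sizes. Of the 23 probes, 13 were detected on both arrays, 1 on the lacZ-positive array only and 9 on neither; the 14 detected probes stood for 8 genes. Of the 14, 12 had a log2 ratio above 0, where 54.6% of all detected named probes did. Fn1 held 4 of the 14 probes and Sparc 3. Among the 12, Fn1 ILMN_1260125 and Tnc ILMN_2463180 lay within 2 bead SE of 0, and 1 Sparc probe was detected on the lacZ-positive array only. Of the 8 genes, each by its brightest probe, 6 were above 0, beside 54.2% of all detected genes. Past 2-fold, 3 of the 14 probes were higher, beside 3.78% of the 14705 detected named probes, and 0 were lower, beside 5.96%. Taken as genes, by their brightest probe, Mgp and Cthrc1 were at least 2-fold higher, beside 3.82% of all detected genes, 0 were lower, beside 6.44%, and 6 were within 2-fold. The median log2 ratio of the 8 genes was 0.72. These calls lie near the threshold: with the authors' processed values 2 of the 14 probes reached 2-fold as deposited and 0 after the same offset of 16 was added, and with no normalization between arrays 8 did.

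**Figure D1:**
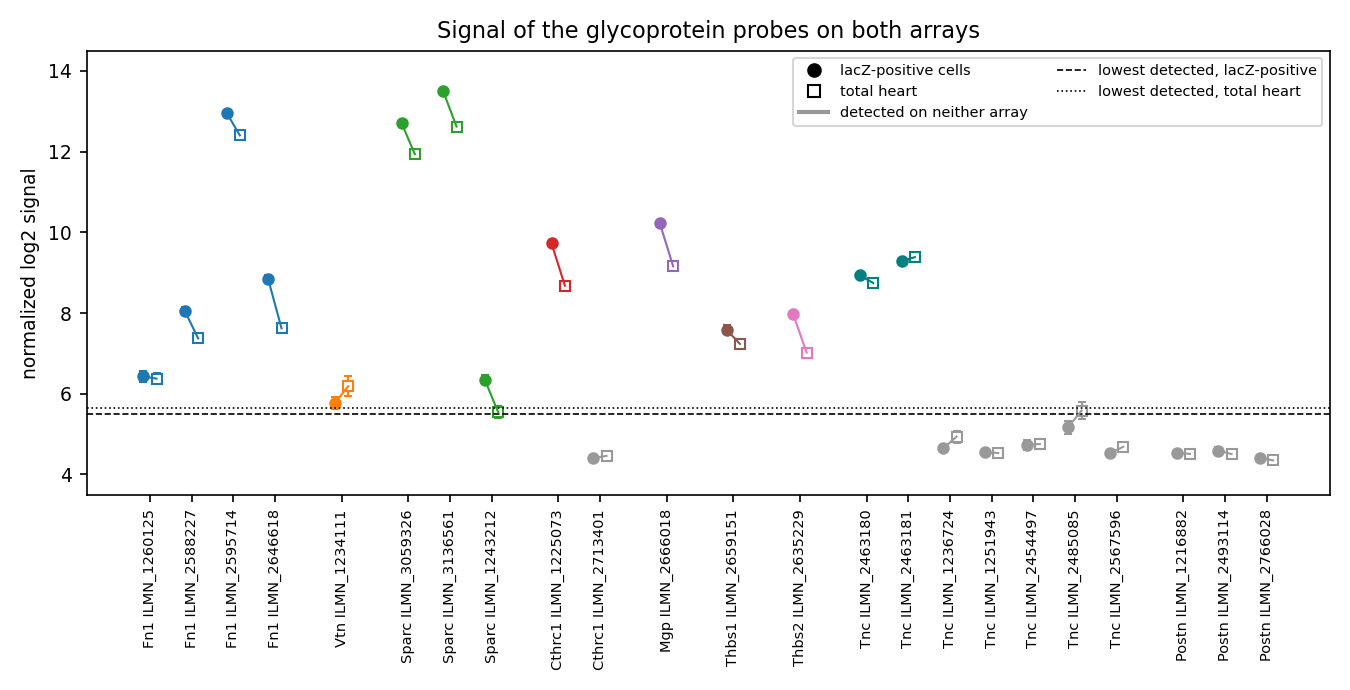
Normalized log2 signal of each of the 23 glycoprotein probes in lacZ-positive cells (filled circles, left) and in total heart (open squares, right), with bars of 1 bead SE and 1 array a group. Grey probes were detected on neither array, and the horizontal lines mark the lowest detected signal of each array. All 3 Postn probes lie under both lines, whereas the Sparc pair ILMN_3059326 and ILMN_3136561 lies far above them on both arrays.

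Fibronectin, the product of Fn1, forms the fibrils of early embryonic matrix on which cells migrate, and it had 4 detected probes that did not give the same size. By its brightest probe, ILMN_2595714, Fn1 had a raw intensity of 8808 ± 361 (bead SE, 41 beads) in lacZ-positive cells, against 4801 ± 143 (53 beads) in total heart. Its normalized log2 ratio was 0.56 (bead SE 0.083), or 1.48-fold higher, above the ratios of 86.9% of the detected genes. Probe ILMN_2646618 read 561 ± 35.8 in lacZ-positive cells, against 205 ± 9.07 in total heart, and was the glycoprotein probe with the highest ratio, at 1.22 (bead SE 0.12, 2.33-fold). Probe ILMN_2588227 gave 0.68 (bead SE 0.13), from raw intensities of 337 ± 18.5 in lacZ-positive cells and 179 ± 8.84 in total heart. The dimmest, ILMN_1260125, read 134 ± 9.25 in lacZ-positive cells and 107 ± 6.44 in total heart and gave 0.057 (bead SE 0.19), no larger than its bead error. The highest and the lowest of the 4 ratios differed by 1.16 on the log2 scale, with a bead SE of 0.22. Of the 3529 genes with over 1 detected probe, 3.40% had a range at least as wide, and the median range was 0.28. That comparison pools genes whatever their number of probes, and a range tends to widen with more probes. All 4 Fn1 probes carry the same transcript accession in the annotation, and their positions in the transcript were not used here. Fn1 was thus higher by 3 of its 4 probes, and only 1 of these passed 2-fold.

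Vitronectin, the product of Vtn, is an adhesive protein of plasma and matrix made chiefly in liver. Its 1 probe was barely above background on both arrays, at 97.6 ± 6.36 (37 beads) in lacZ-positive cells and 98.4 ± 10.4 (26 beads) in total heart. The log2 ratio of -0.42 had the widest bead SE among the detected glycoprotein probes, 0.28, so that it lay within 2 bead SE of 0. It stayed below 0 under all 8 ways of processing the signals, between -0.55 and -0.10. Of 9 detected markers of hepatoblasts and endoderm, 3 were at least 2-fold lower in lacZ-positive cells, beside 6.44% of all detected genes. Higher were 0, beside 3.82%. The median log2 ratio of these markers was -0.76, and their part in the Vtn value was not tested.

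Sparc encodes a collagen-binding protein that regulates how collagen is processed and deposited. Its transcript was higher in lacZ-positive cells by both probes that were detected on both arrays. Probe ILMN_3136561 read 12580 ± 353 (42 beads) in lacZ-positive cells, against 5589 ± 129 (52 beads) in total heart, and its log2 ratio was 0.87 (bead SE 0.061), or 1.83-fold. By ILMN_3059326, Sparc read 7527 ± 161 in lacZ-positive cells, against 3433 ± 161 in total heart, with a ratio of 0.77 (bead SE 0.070). A dim probe, ILMN_1243212, read 129 ± 6.81 in lacZ-positive cells and 76.5 ± 4.17 in total heart. It was detected on the lacZ-positive array only, and was not well above background in total heart. Its bound was 1.62-fold higher, or 0.70 on the log2 scale, by the processing used here. Its measured log2 ratio moved between 0.41 and 1.10 with the processing, so that the low end lay under that bound. The bright pair stood at 14.4 and 11.1 times their bead SE.

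Cthrc1 encodes a secreted collagen triple helix repeat protein, first described in injured arteries, that limits collagen matrix and takes part in Wnt signalling. Its detected probe read 1006 ± 34.6 in lacZ-positive cells and 390 ± 14.9 in total heart, over 49 beads on each array. The log2 ratio was 1.05 (bead SE 0.081), or 2.07-fold, and 319 of the 9713 detected genes had a higher one. The other Cthrc1 probe, ILMN_2713401, was at background on both arrays, at 45.4 in lacZ-positive cells and 45.7 in total heart, and has no ratio to set beside the first.

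Mgp encodes matrix Gla protein, an inhibitor of calcification that binds BMPs and is made by cartilage and vascular cells. Its 1 probe read 1407 ± 48.4 (38 beads) in lacZ-positive cells and 524 ± 17.8 (49 beads) in total heart. At a log2 ratio of 1.06 (bead SE 0.072), or 2.09-fold, Mgp had the highest ratio of the 8 genes when each was represented by its brightest probe, and 307 detected genes had a higher one. Mgp and Cthrc1 lay within 1 bead SE of the 2-fold line. By the authors' processed values as deposited, Mgp read 1062 in lacZ-positive cells and 524 in total heart, a ratio of 2.03, and Cthrc1 read 761 in lacZ-positive cells and 391 in total heart, a ratio of 1.95. With an offset of 16 added to those values neither passed the line.

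The thrombospondins are large secreted proteins that bind calcium, CD47 and integrins. Thrombospondin 1 is also an activator of latent TGF-beta and is stored in platelets, and thrombospondin 2 is made mainly by mesenchymal cells. Thbs2 read 321 ± 14.0 in lacZ-positive cells, against 148 ± 5.83 in total heart, over 46 beads on each array, with a log2 ratio of 0.95 (bead SE 0.10), or 1.93-fold. Thbs1 read 256 ± 15.7 (37 beads) in lacZ-positive cells, against 166 ± 9.23 (43 beads) in total heart, with a smaller ratio of 0.35 (bead SE 0.15), or 1.28-fold. Each has 1 probe, so neither ratio can be checked within the gene. Of 8 detected markers of platelets and megakaryocytes, 7 were at least 2-fold lower in lacZ-positive cells, beside 6.44% of all detected genes. The markers had a summed normalized intensity of 1277 in lacZ-positive cells against 3888 in total heart. The part of platelet RNA in the Thbs1 value was not tested.

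Tenascin C, the product of Tnc, is a hexameric glycoprotein of remodelling matrix that weakens adhesion to fibronectin. Of its 7 probes, 2 were detected, and both ratios lay within 2 bead SE of 0. ILMN_2463181 read 755 ± 26.4 (57 beads) in lacZ-positive cells and 602 ± 26.8 (45 beads) in total heart, with a normalized log2 ratio of -0.093 (bead SE 0.085). ILMN_2463180 read 595 ± 24.4 (42 beads) in lacZ-positive cells and 406 ± 19.3 (25 beads) in total heart, with a ratio of 0.19 (bead SE 0.10). Their ratios differed from each other by 0.28 (bead SE 0.13), and their signs were opposite. The sign of the first turned with the scaling, to 0.34 with no normalization between arrays, where the median of all genes was 0.42. Relative to that median it was below in all 8 ways of processing.

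Periostin, the product of Postn, binds collagen and fibronectin and marks cushion mesenchyme and fibroblasts of the later heart. None of its 3 probes was detected on either array. Their raw intensities were 45.5, 53.3 and 56.0 in lacZ-positive cells and 38.5, 48.1 and 47.9 in total heart, where the dimmest detected probes of any gene read 86.9 in lacZ-positive cells and 79.7 in total heart. Postn thus was not detected by these probes, which does not show that it is absent. The 9 undetected probes, which belong to Postn, Tnc and Cthrc1, lay between 45.4 and 75.8 in lacZ-positive cells and between 38.5 and 77.9 in total heart. Tnc and Cthrc1 also had probes far above background, so a probe at background need not mean little RNA of its gene. Whether the Postn values reflect the probes or the amount of RNA was not tested.

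**Figure D2:**
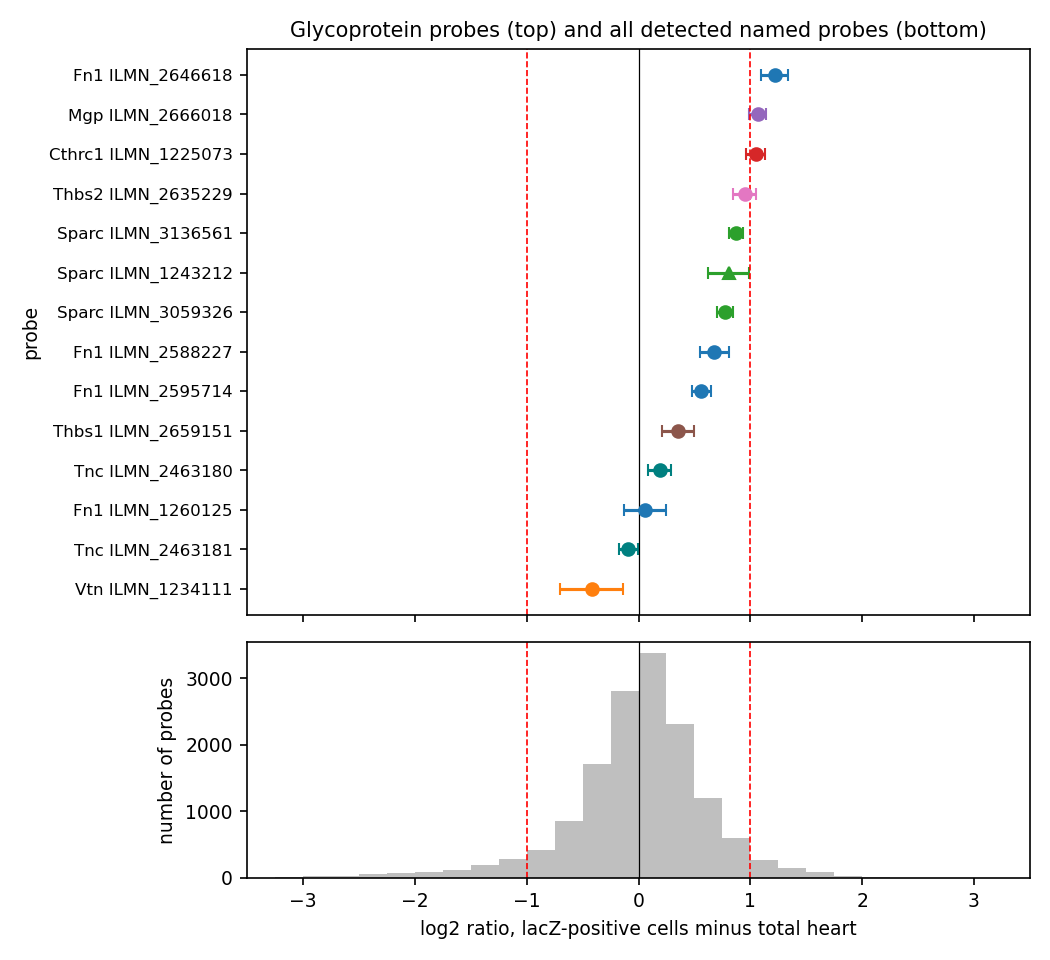
Top, log2 ratio (lacZ-positive cells minus total heart) of the 14 detected glycoprotein probes with bars of 1 bead SE; the triangle is the Sparc probe detected on the lacZ-positive array only. Bottom, the number of all detected named probes at each ratio, 1 of which lies outside the axis. Dashed lines mark 2-fold, and the glycoprotein probes run from -0.42 for Vtn to 1.22 for an Fn1 probe.

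Ordered by size, the 8 genes fell into a run from Mgp, Cthrc1, Thbs2 and Sparc at 1.06 to 0.87, through Fn1 and Thbs1 at 0.56 and 0.35, to Tnc and Vtn at -0.093 and -0.42. Neighbours among the first 4 differed by less than their combined bead SE. The gap between Sparc and Fn1 rests on the probe chosen, since another Fn1 probe exceeded all 4. The mean over detected probes gave 0.63 for Fn1, 0.82 for Sparc and 0.048 for Tnc.

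The start-site windows of a few of these genes are shown because Tcf21, the locus that marks the isolated cells, encodes a basic helix-loop-helix protein, a class that binds E-boxes, the letters CANNTG. The RefSeq promoter table of build GRCm38.p6 held windows of 250 bases before to 50 after the start site for 6 of the 10 genes, and of those with a detected probe, Sparc and Thbs2 stand for genes that were higher and Vtn for one that was not. Capitals mark CANNTG, which reads the same on both strands; each window is given 5′ to 3′ on the strand of its gene. They lie at chr11:55420031-55420330 on the minus strand (Sparc), chr17:14694213-14694512 on the minus strand (Thbs2) and chr11:78498870-78499169 on the plus strand (Vtn).
Sparc: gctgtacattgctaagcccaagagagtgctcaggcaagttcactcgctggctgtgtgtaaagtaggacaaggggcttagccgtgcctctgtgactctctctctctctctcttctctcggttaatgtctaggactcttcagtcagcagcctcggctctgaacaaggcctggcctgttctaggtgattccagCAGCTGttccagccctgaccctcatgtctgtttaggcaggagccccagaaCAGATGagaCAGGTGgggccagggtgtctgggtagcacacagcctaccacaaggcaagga
Thbs2: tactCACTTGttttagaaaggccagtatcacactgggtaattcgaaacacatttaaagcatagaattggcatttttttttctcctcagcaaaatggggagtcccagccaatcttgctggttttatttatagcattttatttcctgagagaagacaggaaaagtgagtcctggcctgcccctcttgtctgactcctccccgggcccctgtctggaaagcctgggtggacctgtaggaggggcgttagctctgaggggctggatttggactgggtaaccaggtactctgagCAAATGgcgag
Vtn: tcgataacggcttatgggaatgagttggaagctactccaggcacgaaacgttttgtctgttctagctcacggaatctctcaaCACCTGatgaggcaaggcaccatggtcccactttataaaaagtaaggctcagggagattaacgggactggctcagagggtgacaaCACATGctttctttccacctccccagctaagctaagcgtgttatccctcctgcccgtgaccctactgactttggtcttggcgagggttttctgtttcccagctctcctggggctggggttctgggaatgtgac
The window of Sparc held 3 such words, that of Thbs2 held 2 and that of Vtn held 2. Tnc, whose ratio was near 0, had 2 overlapping windows in the table, not printed, with 3 and 2 such words. At least 1 CANNTG stood in 72.3% of the 32851 windows in the table, and 17.6% held at least 3. The word CAGCTG, present once in the Sparc window, stood in 16.3% of all windows. Sparc also held CAGATG, which on either strand stood in 17.2%. The windows of Thbs2, Vtn and Tnc held neither word. A match of letters is a description of the window and not a binding site.

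The other matricellular and adhesive matrix genes of a wider list lay on both sides of 0, most of them above it. Of 38 with a named probe, 15 were detected, and 11 of these had a log2 ratio above 0, beside 54.2% of all detected genes. All 15 were detected on the lacZ-positive array and 13 on the total heart array. The rest were thus kept only through the array where they were higher, which adds to the number above 0. At least 2-fold higher were 3 of the 15, beside 3.82%, 1 was lower, beside 6.44%, and 11 were within 2-fold. Their median log2 ratio was 0.67, where that of all detected genes was 0.044. The list median was 0.65 with bounds and 0.060 with no detection filter, which adds genes at background. Matn4, of the matrilin family of matrix adaptor proteins, read a log2 signal of 9.20 in lacZ-positive cells and 7.65 in total heart, a ratio of 1.55 (bead SE 0.10), though another of its probes gave 0.45. Fibulin 2, encoded by Fbln2 and found at basement membranes and cushions, had a ratio of 1.29 (bead SE 0.077) and 1.40 by its other probe. Matn2 was detected in lacZ-positive cells only and was at least 1.30-fold higher, so that 2 of the list were at least 2-fold higher with bounds. Emilin2, an elastic fibre glycoprotein gene, was the lower one, with log2 signals of 9.28 in lacZ-positive cells and 10.40 in total heart and ratios of -1.12 and -1.23 by its 2 probes. Ccn4, a Wnt-induced CCN family gene, stood at -0.47, though its other detected probe gave 0.0036. Smoc1, a relative of Sparc, stood at -0.15.

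Receptors that read this matrix were detected for 21 of 27 genes. Of these, 6 were at least 2-fold higher, beside 3.82% of all detected genes. Lower was 1, beside 6.44%, and 14 were within 2-fold. With genes detected on 1 array at their bound, 4 were higher; the median log2 ratio was 0.43, and 0.25 with bounds. Itgb5, the beta subunit of the vitronectin receptor alpha-v beta-5, was 2.24-fold higher in lacZ-positive cells (log2 ratio 1.17, bead SE 0.075). Sdc4, a syndecan that binds fibronectin together with integrins, was 2.38-fold higher (1.25, bead SE 0.097). Itga3, whose integrin binds laminins and thrombospondin, was 2.64-fold higher (1.40, bead SE 0.079). Egfr, a receptor that the EGF-like repeats of tenascin C can engage, was 2.73-fold higher by its brightest probe, and the lowest of its 4 probes gave 0.68. Itgb8, which forms a receptor for latent TGF-beta, and Lrp1, a clearance receptor for thrombospondins, were detected on the lacZ-positive array only, at least 1.06-fold and at least 1.59-fold higher. Itga2b, the platelet fibrinogen receptor subunit, was 2.39-fold lower, the lowest ratio in the list. Vldlr, which binds thrombospondin 1, stood at -0.96. Itga5, the alpha subunit of the classical fibronectin receptor, stood at -0.14, while its dimmer detected probe had a ratio of 0.081.

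Genes whose products bind, process or modify these glycoproteins were detected for 22 of 25. Of these, 18 had a log2 ratio above 0, beside 54.2% of all detected genes. All 22 were detected on the lacZ-positive array and 21 on the total heart array. At least 2-fold higher were 5, beside 3.82%, and 0 were lower, beside 6.44%. Their median was 0.72, the same at this precision as that of the 8 glycoprotein genes. Some collagen genes of this list are also among the fibroblast markers below, so these lists are not independent. Plat, the tissue plasminogen activator, was 2.90-fold higher (log2 ratio 1.54, bead SE 0.086). Lox, which crosslinks collagen and elastin and is bound by fibronectin and periostin, was 2.37-fold higher (1.24, bead SE 0.11). Tgfb3 was 2.18-fold higher, while Tgfb1, the ligand that thrombospondin 1 is best known to activate, stood at -0.26. Bmp1, a procollagen protease that fibronectin and periostin bind, was 2.01-fold higher by its brightest probe (bead SE 0.070), with 0.24 by the lowest of its 4. Bmp4, a ligand that matrix Gla protein can bind, was 2.01-fold higher (bead SE 0.066). Both lay within 1 bead SE of the 2-fold line. Fam20c, the kinase that phosphorylates secreted proteins such as osteopontin, stood at -0.079. The protease gene Adamts1, whose product cleaves thrombospondins, stood at -0.031, but its other detected probe lay above 0, with a ratio of 0.32.

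**Figure D3:**
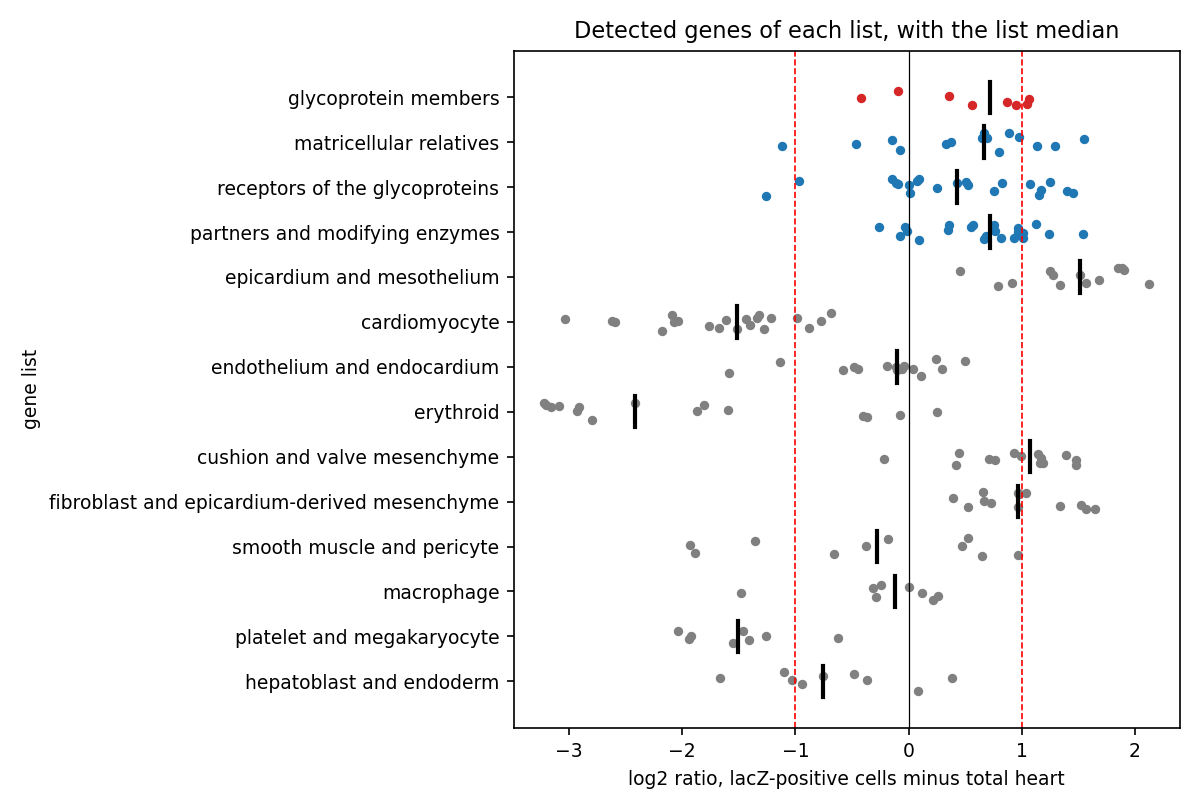
Log2 ratio (lacZ-positive cells minus total heart) of each detected gene, by its brightest probe, in the glycoprotein set (red), the 3 related lists (blue) and the lists of cell type markers (grey); black bars are list medians and dashed lines mark 2-fold. Points are jittered vertically. The median of the glycoproteins, 0.72, lies between that of endothelial markers, -0.11, and those of mesenchymal markers, 0.97 and 1.07.

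Marker genes also differed between the arrays. Tcf21, whose locus marked the isolated cells and which is among the epicardial markers counted next, was 2.53-fold higher in lacZ-positive cells. Of 13 detected markers of epicardium and mesothelium, 10 were at least 2-fold higher (median 1.52). So were 7 of 14 of cushion and valve mesenchyme (median 1.07) and 5 of 13 of fibroblasts and epicardium-derived mesenchyme (median 0.97). The shares to set beside the marker counts are 3.82% of all detected genes higher and 6.44% lower. The summed normalized intensity of the fibroblast list was 36012 in lacZ-positive cells, against 17126 in total heart, and that of the cushion list 20527 in lacZ-positive cells against 8604 in total heart. Of 21 cardiomyocyte markers, 17 were at least 2-fold lower, with a sum of 114774 in lacZ-positive cells against 271371 in total heart, and of 15 erythroid markers 11 were. All 21 cardiomyocyte and all 15 erythroid markers were still detected in lacZ-positive cells. Of 10 smooth muscle and pericyte markers, 3 were at least 2-fold lower and 4 had a log2 ratio above 0 (median -0.28). They summed to 20556 in lacZ-positive cells and 33162 in total heart. Of 8 macrophage markers, 1 was at least 2-fold lower and 4 were above 0 (median -0.12). These summed to 833 in lacZ-positive cells and 1049 in total heart. Bright probes weigh most in every such sum, so a few genes can set it. The detected glycoprotein genes summed to 22715 in lacZ-positive cells and 13727 in total heart (a ratio of 1.65), a sum in which bright probes weigh most. The part of any of these cell types in the glycoprotein values was not tested.

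**Figure D4:**
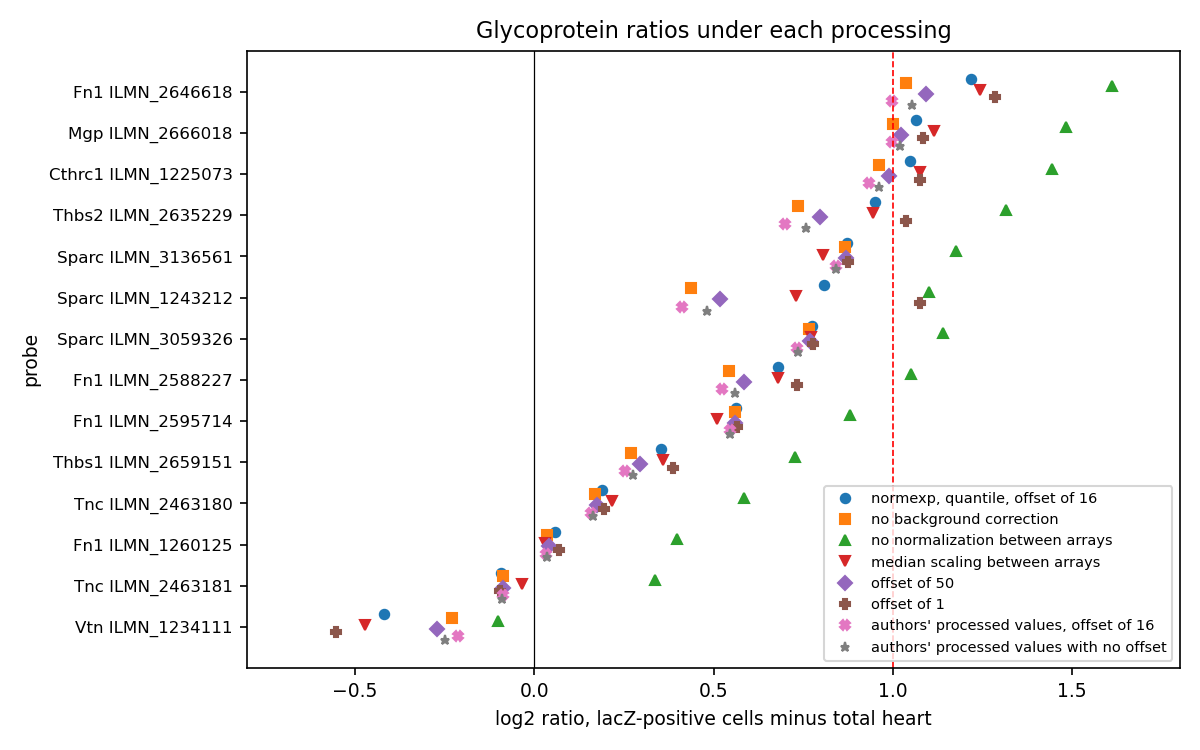
Log2 ratio (lacZ-positive cells minus total heart) of the 14 detected glycoprotein probes under each of 8 ways of processing the signals, 1 marker shape for each; the dashed line marks 2-fold. With no normalization between arrays (green triangles) all ratios shift upward with the median of all genes, to 0.42.

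Of the 14 detected probes, 11, those of Sparc, Cthrc1, Mgp, Thbs1, Thbs2, Tnc ILMN_2463180 and the 3 brighter Fn1 probes, stayed above the median of all genes under each of the 8 ways of processing. The Fn1 probe ILMN_1260125 lay within 0.023 of that median on either side. Mgp kept a ratio between 1.00 and 1.48, Cthrc1 between 0.93 and 1.44, Sparc ILMN_3136561 between 0.81 and 1.17, and Thbs2 between 0.70 and 1.31.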

How the data were processed

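Illumina mouse bead arrays measured RNA of 2 samples, 1 array a group. In the authors' deposited table the file headers name a mean bead intensity for each of 45281 probes, with its standard error over beads, the bead number and a detection p-value; these intensities were linear and not background-subtracted when checked. A second deposited table, used as an alternative with the offset below and without it, held intensities that the authors had equalised between arrays by an unstated method. The submitters' processing notes name GenomeStudio; no genome build is given in the sources used here. Of all probes, 34885 had 1 symbol in GEO's platform annotation, 18 had several and 10378 had none, and only the first kind was named.

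Background correction used normexp fitted on the detection p-values (nec of limma 3.58.1 under R 4.3.3) with an offset of 16, followed by quantile normalization and log2. Probes counted as detected below a detection p-value of 0.01, and those detected on at least 1 array were kept; a gene was represented by its brightest such probe over both arrays. No test was possible with 1 array a group, so calls are by size, at 2-fold on measured values. The bead SE was carried through the same map to log2. A probe detected on 1 array has a bound, set against the higher of its own dim value and the lowest detected signal of the dim array. The steps were tested on simulated data and run on the whole table.

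The members and lists were chosen with earlier results of these data known. Some genes stand in several lists. Every probe of the members was named, as was, of the 3 related lists, each gene past 2-fold and the 3 highest and 3 lowest ratios; of marker lists only the 2 extreme genes could be named, and Tcf21 was added. Alternatives changed the background correction, scaling, offset, detection filter, choice of probe, use of bounds and fold.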

Additional observations from a re-analysis of the deposited data

How the results depend on the processing

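No paired analysis was possible because each group had 1 array, and no array could be left out. No glycoprotein probe past 2-fold changed its sign under the 7 other ways of processing the signals. The median of all genes moved at most to 0.42, so ratios past 2-fold could hardly change sign. Of the probes within 2-fold, Tnc ILMN_2463181 did, from -0.093 to 0.34 with no normalization. Single genes of the related lists were not followed across these ways. The authors' processed values were used with the offset of 16 and, as an alternative chosen after seeing the data, as deposited with no offset. The number of glycoprotein probes at least 2-fold higher (3) became 8 with no normalization between arrays, 5 with an offset of 1 and 8 at 1.5-fold. It was 0 with the authors' processed values plus 16. It was 2 with those values as deposited, with no background correction and with an offset of 50. The number of such genes (2) became 1 with no background correction, 1 with an offset of 50, 0 with the authors' processed values plus 16 and 1 as deposited, 4 with no normalization and 4 at 1.5-fold, and their median became 1.03 with no normalization and 0.56 with no detection filter. With no normalization, which moved the median of all genes to 0.42, 9 matricellular relatives and 12 partners were higher, 0 relatives and 0 receptors were lower, and the medians were 1.09 for relatives, 0.79 for receptors and 1.09 for partners. Of all detected genes, 1020 were then higher and 381 lower, so that 72.8% of genes past 2-fold were higher in place of 37.2%. All-gene counts became 202 higher and 380 lower with no background correction, 189 and 361 with the authors' processed values plus 16, 219 and 404 with these as deposited, 223 higher with an offset of 50, 563 higher with an offset of 1, and 1199 higher and 1230 lower at 1.5-fold. Lower receptors became 0 with no background correction, with an offset of 50 and with the authors' processed values, with or without the offset, and 2 with the mean of probes and at 1.5-fold. Higher receptors (6) became 4 with no background correction, with median scaling and with an offset of 50. They were also 4 with the authors' processed values, with or without the offset, and 8 with no normalization and at 1.5-fold. Other counts that changed by 1.5 times or less are not all listed. Higher partners became 2 with no background correction and with an offset of 50, and 13 at 1.5-fold, where 9 relatives were higher. The median of relatives became 0.56 with the authors' processed values plus 16, 0.46 at a detection limit of 0.05 and 0.060 with no detection filter, and that of receptors 0.091 with no detection filter and 0.25 with bounds. Marker medians moved too. With the authors' processed values plus 16 they were 1.04 for epicardium, 0.91 for cushion, 0.80 for fibroblast and -0.45 for hepatoblast markers. With no normalization they were 1.92, 1.47, 1.35 and -0.41 in the same order, and 0.31 for endothelial markers. The hepatoblast median was -0.24 with no detection filter. Other shifts of marker medians are not all listed. The cause of these changes was not tested. A looser filter does add genes at background, whose ratios are near 0, and a larger offset shrinks ratios by construction. Signal over background limits Vtn, Postn, the dim Fn1 and Sparc probes and the 5 undetected Tnc probes.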
